A study of Sus scrofa with 9 samples.

Results

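The genes described here are 10 imprinted regulators of growth, chosen by symbol: IGF2, IGF2R, GRB10, CDKN1C, PLAGL1, PEG3, DLK1, PEG10, MEST and NNAT. They were read in RNA sequencing of tooth germs of miniature pigs, in a table of 34580 rows. Of the 10, 9 had a row under their symbol, 8 were above 0 in at least 1 library, and 7 passed the filter on low values that 19618 rows passed. CDKN1C was not analysed here, since no row carries its symbol. The study asked how RNA levels differ between stages of crown formation. The germ was Dm3, a mandibular deciduous molar, taken from fetuses at embryonic day 40 (E40, cap stage), day 50 (E50, early bell stage) and day 60 (E60, late bell stage). Each stage had 3 libraries, from untreated animals. The labels do not say whether the libraries of a stage came from separate fetuses or litters. The paper's methods mention biological replicates of each condition, without saying how many fetuses or litters they came from. The p-values therefore measure the spread between these libraries, which may be technical.

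An imprinted gene is transcribed mainly from a single parental copy, and many such genes set the size of the fetus and its organs. IGF2 is a growth factor usually transcribed from the paternal copy. IGF2R binds IGF2 and delivers it to lysosomes, GRB10 is an adaptor that dampens signalling by the insulin and IGF1 receptors, and CDKN1C inhibits cyclin-dependent kinases. PLAGL1 and PEG3 are zinc finger proteins, and PLAGL1 is known to act on other imprinted genes. DLK1 is a Notch-like transmembrane protein that holds back adipocyte differentiation. PEG10 derives from a retrotransposon, MEST belongs to the alpha/beta hydrolase family, and NNAT (neuronatin) is a small protein of the endoplasmic reticulum membrane. In tooth germs, cap-stage growth and folding give way to differentiation of ameloblasts and odontoblasts at the bell stages. The table holds total levels per gene, so nothing here measures which parental copy was transcribed.

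Levels were given as FPKM (fragments per kilobase of exon, scaled to all mapped fragments of the library), which is a level per length and allows genes to be compared within a library. Whole reads recovered from the steps of the FPKM values gave 938527 to 1760356 reads in 5 libraries (the 3 of E40, and E60 libraries 2 and 3) and 14362235 to 16674750 reads in 4 (the 3 of E50, and E60 library 1). These are called the shallow and the deep libraries below. Across tested genes, log2 levels correlated at 0.959 to 0.983 within the deep libraries, at 0.743 to 0.838 within the shallow ones and at 0.301 to 0.609 between the sets. A single row, LOC102158401, held 22.3% to 40.6% of the reads in the shallow libraries and at most 0.576% in the deep ones. Between E40 and E50, stage and set therefore cannot be told apart. E60 library 1 carried the late-bell genes of its label: AMBN, an enamel matrix gene, was at 10410 FPKM in it and at 2181 and 5371 in the other E60 libraries, against 2.77 to 6.48 FPKM at E40 and E50. Comparisons of the members are given over 9 libraries and again over 8, without E60 library 1. Germ epithelium was marked by KRT5 at 858 to 3660 FPKM and mesenchyme by LHX8 at 39.2 to 238 FPKM. CDH1, also an epithelial marker, was listed at 0 in all 9 libraries.

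Among the members, NNAT was the most abundant at E40 and fell to E50, while the other 6 tested members had higher means at E50. On FPKM without rescaling, 5 of the 7 (NNAT, PEG10, PEG3, GRB10 and PLAGL1) lay at E60 below the earlier stage of their own set. This held in both the shallow and the deep libraries, as for 12.4% of tested genes. The count was not repeated on rescaled levels. The earlier stage is E40 for the shallow libraries and E50 for the deep ones, which hold 1 library of E60. IGF2 was listed at 0 throughout and DLK1 was at or below the detection floor.

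NNAT was at 51.2, 48.3 and 45.4 FPKM in the E40 libraries, at 14.3, 12.3 and 16.9 FPKM in the E50 libraries, and at 4.02, 22.3 and 20.01 FPKM at E60 (libraries 1, 2 and 3). The E40 libraries stood above all others, and within E60 the deep library was the lowest of the 9. The stage means were 48.3 ± 2.88, 14.5 ± 2.31 and 15.4 ± 9.94 FPKM (SD, n = 3 each). From 89 to 704 reads stood behind each value. NNAT stood at the 92.1 to 93.3 percentile of tested genes in the E40 libraries and at the 66.3 to 72.8 percentile at E50. In E60 libraries 1, 2 and 3 it was at the 46.1, 90.2 and 84.5 percentile.

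PEG10 was at 11.1, 12.2 and 17.4 FPKM at E40, at 23.6, 28.9 and 25.3 FPKM at E50, and at 21.5, 3.95 and 4.996 FPKM at E60 (libraries 1, 2 and 3). Its 3 highest values were those of E50, and its 2 lowest were E60 libraries 2 and 3, with 31 and 50 reads. The means were 13.6 ± 3.38, 25.9 ± 2.70 and 10.1 ± 9.83 FPKM (SD, n = 3 each).

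MEST varied least in rank among the 7 tested members. It was at 12.1, 14.7 and 19.97 FPKM at E40, at 19.002, 21.1 and 23.5 FPKM at E50, and at 21.7, 8.84 and 11.8 FPKM at E60 (libraries 1, 2 and 3). E40 and E50 overlapped, and its percentile among tested genes stayed between 72.5 and 80.6 in all 9 libraries.

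GRB10, the adaptor, was at 7.79, 7.77 and 5.52 FPKM at E40, at 15.4, 10.1 and 10.7 FPKM at E50, and at 9.04, 3.43 and 5.38 FPKM at E60 (libraries 1, 2 and 3). IGF2R, the IGF2 clearance receptor, was at 1.83, 3.02 and 2.497 FPKM at E40, at 4.22, 3.13 and 3.66 FPKM at E50, and at 3.88, 0.766 and 2.55 FPKM at E60. Both were higher in every E50 library than in any E40 library, and IGF2R was the member whose E60 libraries overlapped the other stages most widely. The shallow values of IGF2R rest on 8 to 34 reads, and those of GRB10 on 11 to 22.

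PEG3 was at 4.49, 5.30 and 5.99 FPKM at E40, at 9.49, 7.73 and 7.61 FPKM at E50, and at 6.41, 1.97 and 3.10 FPKM at E60 (libraries 1, 2 and 3). PLAGL1 was at 1.71, 2.14 and 1.94 FPKM at E40, at 3.84, 4.65 and 3.92 FPKM at E50, and at 3.41, 1.17 and 0.731 FPKM at E60. Both zinc finger genes had their 3 highest values at E50 and their 2 lowest in E60 libraries 2 and 3. PLAGL1 had only 4 to 8 reads in each shallow library, close to the floor of 3 reads, which for its row is 0.548 to 1.03 FPKM there.

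**Figure D1:**
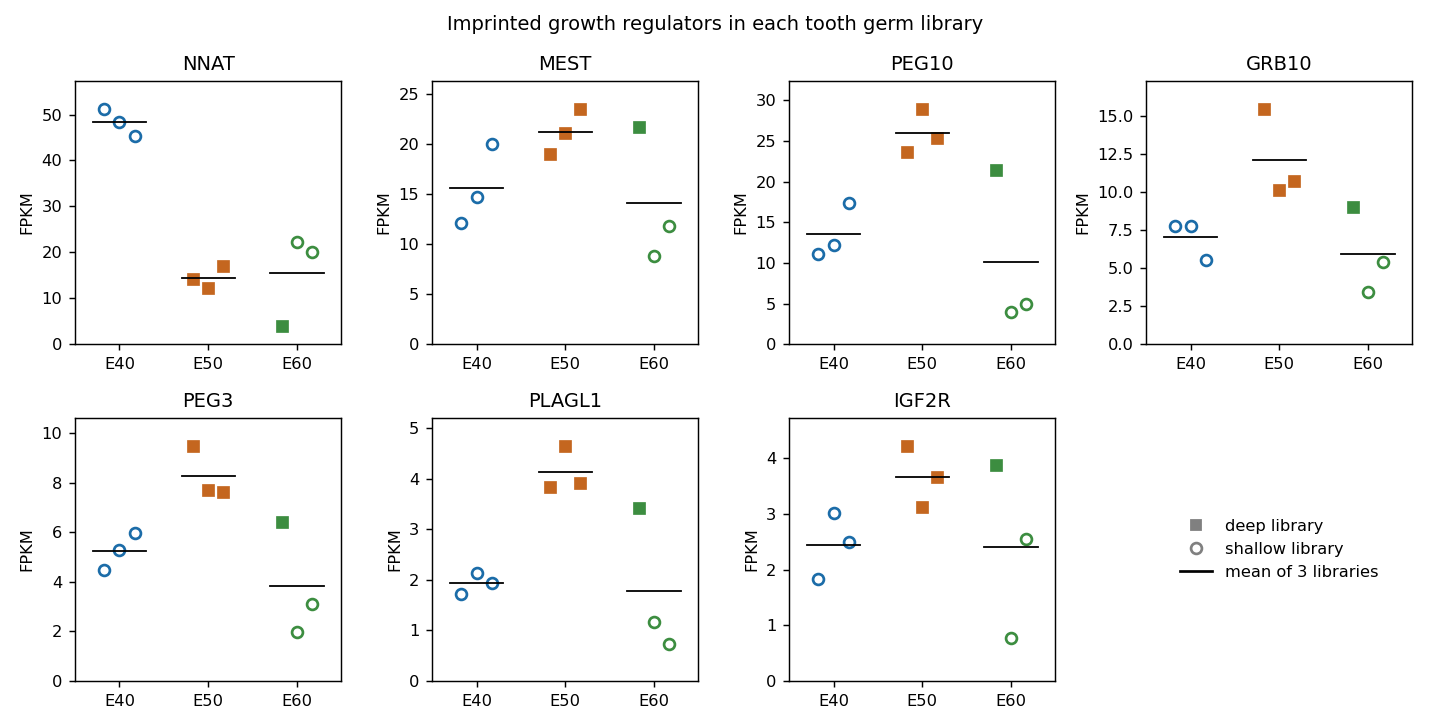
FPKM of the 7 tested members (y axes from 0) in each library at E40, E50 and E60 (x axes), with the mean of each stage as a line; filled squares are deep and open circles shallow libraries. NNAT is highest in the 3 E40 libraries (45.4 to 51.2 FPKM), and the deep E60 library is the lowest of E60 for NNAT and the highest of E60 in the other 6 panels.

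By level, the order at E40 was NNAT, MEST, PEG10, GRB10, PEG3, IGF2R and PLAGL1. MEST and PEG10 overlapped there, as did GRB10 and PEG3, and IGF2R and PLAGL1. At E50 the order was PEG10, MEST, NNAT, GRB10, PEG3, PLAGL1 and IGF2R. The ranges of PEG10 (lowest 23.6 FPKM) and MEST (highest 23.5 FPKM) touched without overlapping at E50, while NNAT overlapped GRB10 and PLAGL1 overlapped IGF2R. At E60 every gene overlapped its neighbour in the order.

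No read of DLK1 was found in any shallow library, and the deep ones held 1, 1 and 2 reads at E50 and 2 reads at E60. Its values of 0.0631 to 0.147 FPKM in the deep libraries were under the floor of 3 reads, which is 0.189 to 0.22 FPKM there. In the shallow libraries the floor for this row is 1.79 to 3.36 FPKM, so a level of DLK1 below that could not be detected at this depth. These limits cover counting error only.

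IGF2 was listed at 0 in all 9 libraries. That 0 cannot be read as absence, since 5617 rows were listed at 0 throughout, among them CDH1 in KRT5-rich tissue. In the RefSeq order of Sscrofa11.1, 20 protein-coding genes with a name lie nearest to IGF2. Of these, 6 had a row and 4 of the 6 (CTSD, TNNT3, INS and CD81) were listed at 0 throughout. Over all 16509 such genes, 80.6% had a row and 5.93% of the rows were listed at 0. Around the other members with a row, at most 3 of the nearest named genes were listed at 0, those 3 lying by MEST. CDKN1C lies in the same stretch as IGF2, and 11 of its nearest 20 had a row, 4 of them at 0 throughout. This count of nearby rows was chosen after the values were seen.

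From the cap to the early bell stage, NNAT fell and PLAGL1 rose in the 8 libraries, while over 9 libraries NNAT was the member that passed. NNAT was 3.34-fold lower at E50 on the log2(FPKM + 0.1) scale, a log2 fold change of -1.74 ± 0.59 (SE; adjusted p = 0.0443, limma with Benjamini-Hochberg adjustment over all tested genes). To pass, a gene needed an adjusted p under 0.05 together with a change of 1 or more, up or down, on the log2 scale. So 1 of 7 members passed, beside 38.6% of all 19618 tested genes. Over 8 libraries the change of NNAT was -1.74 ± 0.20 (limma adjusted p = 0.000129). E60 library 1 enters this comparison only through the spread shared by the stages, so the fold changes were the same in both fits. PLAGL1 then passed as well (1.06 ± 0.32, limma adjusted p = 0.0204), so 2 of 7 members passed beside 54.6% of tested genes. With libraries rescaled to a common median ratio across genes, PLAGL1 did not pass over these 8 (0.44, limma adjusted p = 0.399).

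The call on NNAT over 9 libraries was close to its limit. Leaving out any single E40 or E50 library ended it, with limma adjusted p-values of 0.113, 0.101 and 0.0819 without E40 library 1, 2 or 3 and of 0.108, 0.133 and 0.101 without E50 library 1, 2 or 3. The fold change stayed between -1.85 and -1.63 in these fits, and every E50 library was below every E40 library. In the same fits the share of all tested genes that passed fell from 38.6% to between 0.297% (without E50 library 2 or 3) and 27.5% (without E40 library 3).

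The other members had positive changes over 9 libraries: 0.95 ± 0.59 for PEG10, 1.06 ± 0.59 for PLAGL1, 0.77 ± 0.44 for GRB10, 0.65 ± 0.47 for PEG3, 0.58 ± 0.61 for IGF2R and 0.47 ± 0.40 for MEST (log2 fold change ± SE). None of these 6 passed. The stages did not overlap, with E50 higher, for 5 members (IGF2R, PEG3, PEG10, GRB10 and PLAGL1), beside 45.2% of tested genes. NNAT was the 1 member with E50 lower and no overlap, beside 27.8% of tested genes. The median change was 0.65 over the members and 0.55 over all tested genes, so an upward shift of this size was common to the table.

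With this median-ratio scaling over 9 libraries, the median of all genes went to -0.14 and that of the members to -0.01. Under this scaling PEG10, PLAGL1 and GRB10 kept a positive sign while MEST, IGF2R and PEG3 turned negative (-0.19, -0.06 and -0.01), and none of these 6 passed. NNAT fell by 2.40 on the log2 scale (limma adjusted p = 0.0468 over 9 libraries), beside 36.5% of tested genes that passed.

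Skeletal muscle markers fell from E40 to E50, as NNAT did. Their summed level was 80.6 to 113 FPKM at E40 and 10.9 to 14.6 FPKM at E50. Of 8 listed markers 6 had a row, and 5 of the 6 fell from E40 to E50, beside 21.8% of tested genes. In E60 libraries 1, 2 and 3 the sum was 6.92, 10.4 and 14.1 FPKM, where NNAT was at 4.02, 22.3 and 20.01 FPKM. The myogenic factor MYOG was at 15.5 to 24.6 FPKM at E40 and 0.710 to 1.55 FPKM at E50, and MYOD1 was at most 2.36 FPKM in any library. Markers of neurons and glia (neurons are known to express NNAT) summed to 0.505 to 6.78 FPKM at E40 and 4.13 to 5.05 FPKM at E50, with 4 of 6 listed markers in the table and none passing the limits. The part of either in the fall of NNAT was not tested. In bulk RNA, fewer cells of a type and less RNA per cell cannot be told apart.

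**Figure D2:**
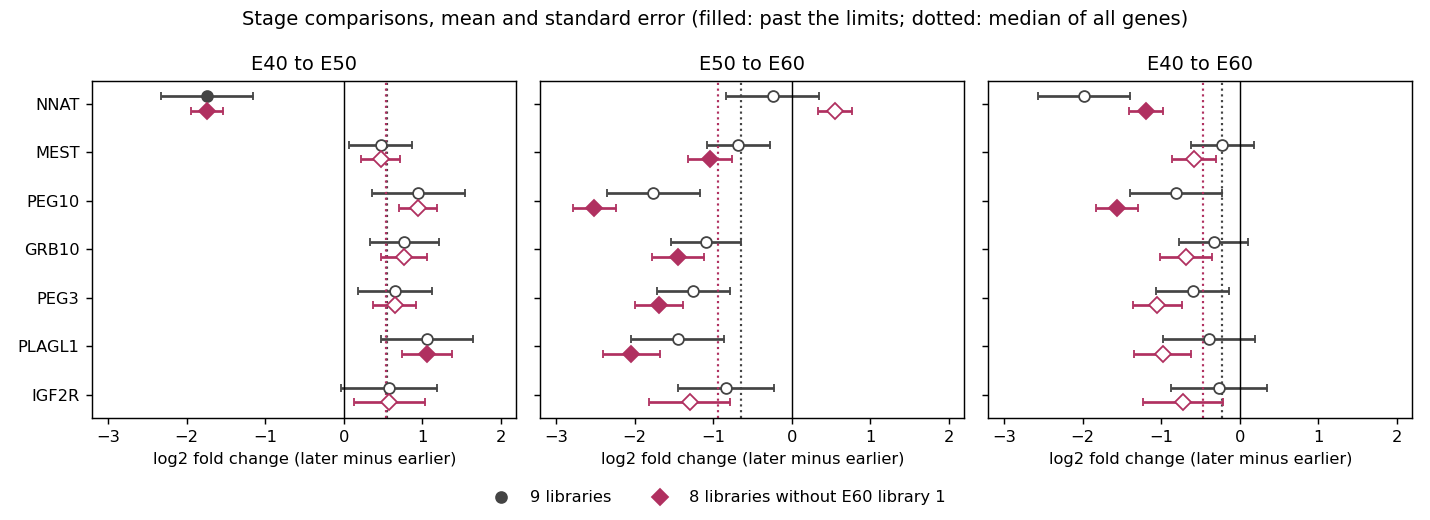
Log2 fold change of the later against the earlier stage (x axes) with standard error for the 7 tested members (y axis), over 9 libraries (circles) and over 8 without E60 library 1 (diamonds); filled symbols passed the limits and dotted lines mark the median of all tested genes. NNAT is at -1.74 in both fits from E40 to E50, and the 5 filled diamonds from E50 to E60 lie between -2.51 and -1.04.

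From the early to the late bell stage, no member passed over 9 libraries and 5 fell over 8. Over 9 libraries 0 of 7 members passed the limma limits, beside 0.0714% of tested genes. At an unadjusted p under 0.05 there were 4 members (PEG3, GRB10, PLAGL1 and PEG10) and 5923 of all tested genes, and limma-voom on the recovered reads also called 0 members, beside 0.311% of tested genes. All 3 E60 libraries lay below all 3 E50 libraries for PEG3, PEG10, GRB10 and PLAGL1, 4 of 7 members, beside 21.6% of tested genes. The changes over 9 libraries ran from -1.76 ± 0.59 for PEG10 to -0.24 ± 0.59 for NNAT.

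Over 8 libraries PEG10 fell by 2.51 on the log2 scale (limma adjusted p = 0.00013), PLAGL1 by 2.04 (limma adjusted p = 0.00153) and PEG3 by 1.69 (limma adjusted p = 0.00172). GRB10 fell by 1.45 (limma adjusted p = 0.00525) and MEST by 1.04 (limma adjusted p = 0.0119). These 5 of 7 stand beside 39.1% of tested genes that fell past the limits in that fit. The median change was -1.45 over the members and -0.94 over all tested genes. NNAT had a change of 0.55 ± 0.22 over 8 libraries and did not pass, with both E60 libraries above the E50 range, as for 24.5% of tested genes.

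Over these 8 libraries every E50 library is deep and every E60 library shallow, so stage and set cannot be told apart in the larger count of calls. With the median-ratio scaling, which moved the median of all genes to 0.12 in this fit, 2 of 7 members passed, beside 37.9% of tested genes. PEG10 fell by 1.45 (limma adjusted p = 0.000903) and NNAT rose by 1.62 (limma adjusted p = 0.00198). The direction of NNAT from E50 to E60 thus differed between the deep E60 library, at 4.02 FPKM, and the shallow ones, at 22.3 and 20.01 FPKM.

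From the cap to the late bell stage, the comparison can be made within the shallow libraries. Over 9 libraries 0 of 7 members passed, beside 1.8% of tested genes. At an unadjusted p under 0.05 there was 1 member, NNAT, and 3520 of all tested genes. NNAT had a change of -1.98 ± 0.59 (limma adjusted p = 0.153), and all 3 of its E60 libraries lay below all 3 of E40, as for 19% of tested genes. Over 8 libraries NNAT fell by 1.19 (limma adjusted p = 0.0228) and PEG10 by 1.56 (limma adjusted p = 0.0175), so 2 of 7 members fell, beside 4.68% of tested genes. In a fit of the 5 shallow libraries alone, where the sizes are those same -1.19 ± 0.27 and -1.56 ± 0.37, neither passed (limma adjusted p = 0.0926 and 0.102), beside 1.3% of tested genes.

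With the median-ratio scaling over 8 libraries PEG10 passed (-1.13, limma adjusted p = 0.0246) and NNAT did not (-0.76, limma adjusted p = 0.197), beside 4.87% of tested genes. The smaller changes of IGF2R, MEST, GRB10 and PLAGL1 over 9 libraries, from -0.39 to -0.22, were within their standard errors of 0.40 to 0.61.

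Since depth split the E60 libraries, each E60 library was also set beside the earlier stage of its own set. E60 library 1 lay below all 3 E50 libraries for 5 of 7 members (PEG3, PEG10, GRB10, PLAGL1 and NNAT), beside 31.6% of tested genes. It lay within the E50 range for MEST and IGF2R. E60 libraries 2 and 3 both lay below all 3 E40 libraries for 6 of 7 members, with IGF2R overlapping, beside 30.3% of tested genes. The 5 genes that were below in the deep set were below in the shallow set too, beside 12.4% of tested genes. NNAT differed by -1.81 in the deep and -1.19 in the shallow set (difference of mean log2(FPKM + 0.1)). PEG10 differed by -0.27 and -1.56, PEG3 by -0.36 and -1.05, GRB10 by -0.39 and -0.68, and PLAGL1 by -0.27 and -0.98. The medians over members were -0.27 and -0.98, against -0.07 and -0.46 over all tested genes. These counts are descriptions with no test, on FPKM without the median-ratio scaling. With that scaling, the 5 shallow libraries gave changes from E40 to E60 of -0.71 for NNAT, -1.09 for PEG10 and -0.58 for PEG3. Those of GRB10 and PLAGL1 were -0.21 ± 0.35 and -0.53 ± 0.60 (SE), and the median of all tested genes was -0.01. The deep set compares E60, as 1 library, with E50, whereas the shallow set compares it with E40.

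**Figure D3:**
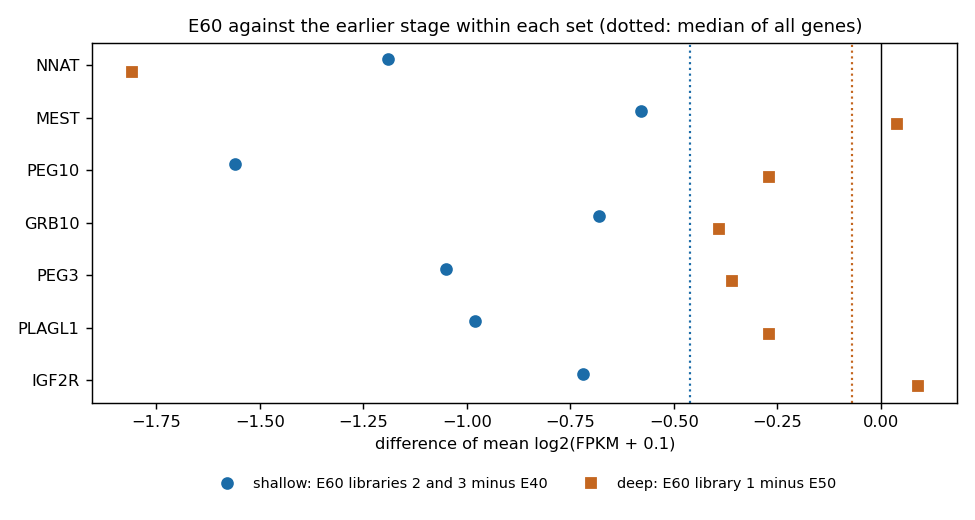
Difference of mean log2(FPKM + 0.1) between E60 and the earlier stage (x axis) for the 7 members (y axis), within the shallow libraries (circles, E60 libraries 2 and 3 minus E40) and within the deep ones (squares, E60 library 1 minus E50); dotted lines are the medians of all tested genes (-0.46 and -0.07). NNAT is the member far below 0 in both sets (-1.19 and -1.81), and MEST is near 0 in the deep set (0.04).

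Ratios between members within a library do not depend on how the library was scaled. NNAT over PEG10 was 2.61 to 4.63 at E40, 0.426 to 0.668 at E50, and 0.187, 5.64 and 4.01 in E60 libraries 1, 2 and 3. The shallow libraries of both stages lay above 1 and the deep ones below 1. NNAT over MEST was 2.27 to 4.22 at E40, 0.584 to 0.751 at E50, and 0.185, 2.52 and 1.70 at E60. PEG10 over MEST was 0.831 to 0.912 at E40, 1.08 to 1.37 at E50, and 0.990, 0.447 and 0.424 at E60. In each set E60 lay below the earlier stage for PEG10 over MEST. PEG10 over PEG3 varied less, from 1.61 to 3.74 over the 9 libraries. The splitting of NNAT ratios by set stands beside the fall of NNAT from E40 to E50, and the part of library set in that fall cannot be told apart from stage.

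**Figure D4:**
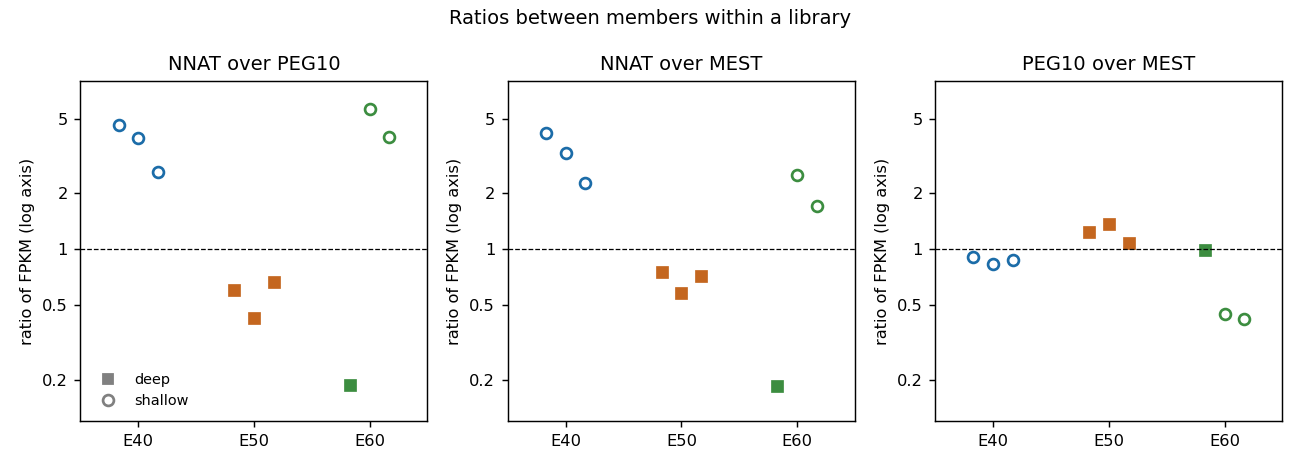
Ratio of FPKM between pairs of members within each library (y axes, log scale) at E40, E50 and E60 (x axes); filled squares are deep and open circles shallow libraries, and the dashed line marks a ratio of 1. NNAT over PEG10 lies between 2.61 and 5.64 in the 5 shallow libraries and between 0.187 and 0.668 in the 4 deep ones.

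Genes with the pattern most like that of 3 members were sought among 7552 named genes with a mean of at least 5 FPKM, by the root mean square difference of centred log2 levels over the 9 libraries. Nearest to NNAT were MAPT (0.307), ARG2 (0.323) and ZBED3 (0.34), against a median of 1.62 over the candidates. MAPT, which encodes the microtubule protein tau, was at 11.4 to 13.7 FPKM at E40, 2.06 to 2.95 FPKM at E50, and 1.07, 5.92 and 6.36 FPKM at E60 (libraries 1, 2 and 3). Nearest to PEG10 were EPHA7, an ephrin receptor (0.13), ZKSCAN7 (0.158) and FGFR1OP (0.174), against a median of 0.689. Nearest to MEST were DPM1 (0.102), EXOC4 (0.112) and SKA2 (0.118), against a median of 0.552. These libraries differ in stage, and in depth together with a dominant row, so likeness here is a description.

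Of 50 other imprinted genes, 38 had a row, 26 were tested and 4 were listed at 0 throughout (INS, CD81, CPA4 and SNRPN). From E40 to E50, 5 rose and 1 fell over 9 libraries, beside 16.8% of all tested genes that rose and 21.8% that fell, and the median change was 1.07 against 0.55 over all tested genes. Over 8 libraries 11 rose and 2 fell, beside 30.5% and 24.2%, and with the median-ratio scaling over these 8, 5 rose and 2 fell, beside 15.5% and 27.8%. DIO3, which inactivates thyroid hormone and lies in the DLK1 region, was at 8.08, 5.86 and 10.4 FPKM at E40, 58.4, 45.2 and 61.5 FPKM at E50, and 22.8, 7.90 and 14.8 FPKM at E60. It rose by a log2 fold change of 2.77 ± 0.44 to E50 (limma adjusted p = 0.0116), and it rose with the median-ratio scaling as well (2.11). COMMD1, a protein of copper handling (1.57), UBE3A, a ubiquitin ligase (2.02), DIRAS3, a small GTPase (2.0), and TFPI2, a serine protease inhibitor (1.77), also rose. COMMD1 did not pass with the median-ratio scaling. Of the 16 genes of the lists described here that passed from E40 to E50, 0 passed without E40 library 1, E50 library 2 or E50 library 3, and 5 to 8 without E40 library 2, E40 library 3 or E50 library 1.

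The member of that list that fell was RTL1, a retrotransposon-derived gene beside DLK1. RTL1 was at 60.2, 60.9 and 47.4 FPKM at E40, at 0.493, 0.0941 and 0.0874 FPKM at E50, at 0 in E60 library 1 and at 10.46 and 8.56 FPKM in the shallow E60 libraries. The change to E50 was -7.65 ± 1.54 on the log2 scale (limma adjusted p = 0.0125). The 5 shallow libraries had 46 to 204 reads and the 4 deep ones 0 to 23, although the deep libraries hold more reads in all. The use of strand in counting is not given in the sources used here, so reads of RTL1 and of the RNA antisense to it cannot be told apart. Within the shallow libraries RTL1 fell from E40 to E60 by 2.55 (limma adjusted p = 0.0145). Rescaled by median ratio, it did not pass there (-2.07, limma adjusted p = 0.0592).

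MEG3, the noncoding RNA of the same region, usually transcribed from the maternal copy, was at 6.95, 11.7 and 12.6 FPKM at E40, at 11.5, 7.25 and 7.66 FPKM at E50, and at 6.82, 1.05 and 1.23 FPKM at E60. Thus the DLK1 region held 1 gene at or below the floor, a gene seen mainly in shallow libraries, a gene highest at E50 and a noncoding RNA that was lowest in E60 libraries 2 and 3. MEG3 fell from E40 to E60 within the shallow libraries by 3.04 (limma adjusted p = 0.0304), where its E60 values rest on 2 and 3 reads, at or below the floor.

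From E50 to E60 none of the 26 other imprinted genes passed over 9 libraries. Over 8 libraries 15 fell and RTL1 rose, beside 39.1% and 20% of tested genes. With the median-ratio scaling over 8 libraries, 24 were tested, of which 3 fell (MEG3, DIO3 and UBE3A) and 2 rose (L3MBTL1 and RTL1), beside 12.5% and 25.4% of tested genes. GNAS, the stimulatory G protein alpha subunit and the most abundant of them, was at 196 to 257 FPKM at E40, 520 to 557 FPKM at E50, and 391, 113 and 198 FPKM at E60 (libraries 1, 2 and 3). NAP1L4, a histone chaperone, was at 88.5 to 132 FPKM at E40, 98.6 to 125.2 FPKM at E50 and 55.6 to 108 FPKM at E60, and its stages overlapped. None of the list passed from E40 to E60 over 9 libraries, and MEG3, COPG2 and RTL1 fell over 8, beside 4.68% of tested genes. In the median-ratio fit over 8 libraries MEG3 alone fell, beside 2.34% of tested genes.

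The nearest 2 named genes on each side of each member, in the order of Sscrofa11.1, made up 39 entries. Of these, 25 had a row and 15 were tested. From E40 to E50, 2 rose (CTNNBL1 beside NNAT and CASD1 beside PEG10) and 3 fell (RTL1, TSGA13 beside MEST and PON1 beside PEG10), beside 16.8% and 21.8% of all tested genes. Over 8 libraries 6 rose and 4 fell, beside 30.5% and 24.2%, and with the median-ratio scaling 2 rose and 5 fell, beside 15.5% and 27.8%. The E40 values of PON1 rest on 1 or 2 reads, below the floor. BLCAP, whose gene contains NNAT in an intron, was at 4.84 to 6.55 FPKM at E40 and 9.21 to 10.6 FPKM at E50, a change of 0.75 ± 0.66 that did not pass, opposite in sign to that of NNAT. SGCE, which shares a promoter region with PEG10, was at 16.9 to 30.2 FPKM at E40 and 44.6 to 62.9 FPKM at E50 (1.26 ± 0.52, not past the limits over 9 libraries; 1.26 ± 0.33, limma adjusted p = 0.0101, over 8, and not past them with the median-ratio scaling over 8, at 0.62). PEG10 over SGCE was 0.404 to 0.696 at E40, 0.404 to 0.529 at E50, and 0.387, 0.317 and 0.208 in E60 libraries 1, 2 and 3. The ratio overlapped between E40 and E50 and was below both in each E60 library. COPG2, which lies tail to tail with MEST, was at 34.3 to 36.1 FPKM at E40 and 53.2 to 62.8 FPKM at E50 (0.75 ± 0.41, not past the limits). PHLDA2, an imprinted regulator of placental growth that lies beside CDKN1C, was at 3.50 to 7.82 FPKM at E40 and 1.35 to 2.40 FPKM at E50. Its E40 values rest on 2 to 5 reads. Its change over 9 libraries was -1.46 ± 0.52, with a limma adjusted p of 0.05 after rounding, not past the limits. PHLDA2 did fall past them over 8 libraries, with the median-ratio scaling over 9 and over 8, and with limma-voom over 9. In those fits 24.2% to 27.8% of tested genes fell. SF3B5, a splicing factor subunit beside PLAGL1, was at 58.5 to 63.9 FPKM at E40, 78.3 to 107 FPKM at E50 and 16.7 to 66.0 FPKM at E60.

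The IGF pathway around IGF2 and IGF2R was read from 22 listed genes, of which 19 had a row, 17 were tested and 2 (INS and IGFBP2) were listed at 0 throughout. From E40 to E50, 1 rose and 5 fell over 9 libraries, beside 16.8% and 21.8% of all tested genes, 4 rose and 6 fell over 8, beside 30.5% and 24.2%, and 1 rose and 8 fell over 8 with the median-ratio scaling, beside 15.5% and 27.8%. IGFBP4, an IGF binding protein, was at 16.4, 26.8 and 26.1 FPKM at E40 and at 106, 64.1 and 92.9 FPKM at E50 (1.92 ± 0.53, limma adjusted p = 0.0235). IGF1, the other IGF ligand, was at 2.87, 2.56 and 2.71 FPKM at E40, at 0.735, 1.24 and 0.875 FPKM at E50, and at 2.45, 2.60 and 3.06 FPKM at E60. The E40 values of IGF1 rest on 3, 3 and 4 reads, at or just above the floor. IGF1 fell to E50 by 1.45 on the log2 scale (limma adjusted p = 0.0362), and the E60 libraries, deep and shallow alike, were back near the E40 level, with a change of 1.44 ± 0.46 from E50 to E60 that did not pass (limma adjusted p = 0.164).

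IGFALS, which holds IGFs in a circulating complex, fell by 2.35 to E50, and its E60 values were 3.81, 4.70 and 6.81 FPKM beside 0.838 to 1.40 FPKM at E50. The binding protein IGFBP3 fell by 1.60 to E50, where its E40 values rest on 3, 4 and 7 reads. PAPPA2, a protease that cleaves IGF binding proteins, was at 2.67, 3.23 and 4.73 FPKM at E40, at 0.460 to 0.586 FPKM at E50 and at 0.266, 0.130 and 0 FPKM at E60. PAPPA2 fell both from E40 to E50 (-2.51 ± 0.68, limma adjusted p = 0.0227) and from E40 to E60 (-4.12 ± 0.68, limma adjusted p = 0.0209). In E60 libraries 2 and 3 PAPPA2 rests on 1 and 0 reads, below the floor. The size of its change to E60 therefore depends in part on the 0.1 added to FPKM. IGFBP1 was at 1.14 to 2.71 FPKM at E40, on 1, 1 and 3 reads, at or below the floor, and listed at 0 in all libraries of E50 and E60. IGF1R, the receptor through which both IGFs signal, did not pass in any comparison over 9 libraries, with 11.3 to 17.3 FPKM at E40, 20.01 to 22.9 FPKM at E50 and 10.6 to 20.8 FPKM at E60. From E50 to E60 none of the 17 passed over 9 libraries, and 2 rose (IGFALS and IGF1) and 6 fell over 8, beside 20% and 39.1% of tested genes. In the median-ratio fit over 8 libraries 3 rose (IGFALS, IGF1 and IGFBP6) and 2 fell (IGFBP4 and IGF2BP1), beside 25.4% and 12.5% of tested genes. On FPKM without rescaling, IGFBP5, IGFBP6 and IGFBP7 did not pass over 9 libraries. With the median-ratio scaling over 9 libraries, IGFBP6 fell from E40 to E50, beside 24.7% of tested genes. IGFBP7 rose from E40 to E60 under that scaling, beside 2.03%. IGFBP5 was at 62.2 to 110 FPKM at E40, 108 to 136 FPKM at E50 and 50.2 to 116 FPKM at E60, IGFBP6 at 16.7 to 24.6, 9.07 to 16.7 and 6.95 to 24.8 FPKM, and IGFBP7 at 41.8 to 63.7, 81.4 to 109 and 60.8 to 141 FPKM.

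Of 7 listed inhibitors of cyclin-dependent kinases and their relatives, set beside CDKN1C, 6 had a row, 4 were tested and CDKN1B was listed at 0 throughout. On FPKM without rescaling, none passed over 9 libraries from E40 to E50, E50 to E60 or E40 to E60. Of all tested genes, 38.6%, 0.0714% and 1.8% passed in these comparisons. CDKN2B was at 7.82, 14.4 and 17.7 FPKM at E40, at 5.24, 5.22 and 6.61 FPKM at E50, and at 4.37, 3.54 and 4.17 FPKM at E60. Its 3 E40 values were the highest, and over 8 libraries it fell from E40 to E50 by 1.14 (limma adjusted p = 0.0162). CDKN2B also fell past the limits in that comparison with the median-ratio scaling over 9 and over 8 libraries, and with limma-voom over 9. In those fits 24.5% to 27.8% of tested genes fell. CDKN1A, a target of p53, was at 2.03 to 3.24 FPKM at E40, 4.97 to 6.44 FPKM at E50, and 10.3, 2.07 and 2.44 FPKM at E60 (libraries 1, 2 and 3), with 4 to 9 reads in each shallow library. Over 8 libraries CDKN1A rose from E40 to E50 by 1.08 (limma adjusted p = 0.0124) and fell from E50 to E60 by 1.29 (limma adjusted p = 0.00906), and with the median-ratio scaling it passed in neither (0.45 and -0.24). CDKN3 was at 12.8 to 23.9 FPKM at E40, 20.8 to 28.1 FPKM at E50 and 15.3 to 21.7 FPKM at E60, and CDKN2D at 1.52 to 6.10, 7.30 to 10.9 and 2.06 to 7.95 FPKM.

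Of 17 factors known to act on imprinted genes or their methylation, 14 had a row and 7 were tested. HMGA2, a chromatin protein that promotes fetal growth and acts on IGF2, was at 68.7, 67.5 and 74.3 FPKM at E40, at 54.8, 39.5 and 62.6 FPKM at E50, and at 15.5, 18.7 and 18.3 FPKM at E60. The E60 libraries, deep and shallow, lay together and below all others. HMGA2 fell from E40 to E60 by 2.0 on the log2 scale (limma adjusted p = 0.0135 over 9 libraries, and 0.0247 within the shallow libraries). With the median-ratio scaling it passed over 9 libraries (-1.89, limma adjusted p = 0.0322) and not within the shallow ones (-1.44, limma adjusted p = 0.0772). On FPKM without rescaling, HMGA2 was the 1 gene of the 7 that passed in any comparison over 9 libraries. It passed from E40 to E60, where 1.14% of all tested genes fell. That call, like those on PAPPA2 and IGFBP1 from E40 to E60, was lost without any single E40 library or without E50 library 1. The calls on PAPPA2 and IGFBP1 were also lost without E50 library 2 or 3, and that on IGFBP1 without E60 library 3. DNMT1, the maintenance DNA methyltransferase, was at 26.5 to 37.9 FPKM at E40, 56.5 to 63.5 FPKM at E50, and 37.1, 11.9 and 20.1 FPKM at E60 (libraries 1, 2 and 3). Its partner UHRF1 was at 30.1 to 43.5 FPKM at E40, 40.4 to 54.6 FPKM at E50, and 17.5, 8.15 and 14.8 FPKM at E60, below both earlier stages in every E60 library. UHRF1 fell past the limits from E40 to E60 over 8 libraries, beside 4.68% of tested genes. With the median-ratio scaling it did so over 9 and over 8 libraries, beside 1.63% and 2.34%. Within the shallow libraries UHRF1 did not pass. From E50 to E60 the 7 had a median change of -1.55 over 9 libraries, against -0.64 over all tested genes, with none past the limits. Over 8 libraries all 7 tested factors fell, in a fit where 39.1% of tested genes did. After median-ratio scaling CTCF was the 1 of the 7 that fell in that comparison, beside 12.5% of tested genes. CTCF, an insulator protein, was at 8.32 to 20.1 FPKM at E40, 34.4 to 41.4 FPKM at E50, and 27.6, 7.07 and 6.21 FPKM at E60 (libraries 1, 2 and 3). DNMT3A, a de novo DNA methyltransferase, was at 16.9 to 25.4 FPKM at E40, 27.0 to 34.5 FPKM at E50, and 15.7, 4.45 and 13.8 FPKM at E60.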

How the data were processed

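RNA of Dm3 germs at E40, E50 and E60 was measured in 3 libraries per stage. The authors depleted rRNA, made directional paired-end libraries, aligned reads with TopHat and deposited FPKM per gene, with no further scaling stated. The submitters' processing notes name Sscrofa10.2. The counter is not given in the sources used here. The members and lists were chosen with earlier results of these data known.

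The test ran on log2(FPKM + 0.1) of rows that reached an FPKM of 1 in 2 or more libraries, so folds of low genes are understated. limma 3.58.1 (R 4.3.3) was fitted with a mean-variance trend and a coefficient per stage, with Benjamini-Hochberg adjustment per comparison over all tested rows. Whole reads were recovered from the FPKM steps (all 28963 rows above 0, within 0.02 of a whole read), giving the depth. On simulated reads 93.7% of genes were exact in every library, and 99.5% of those with at least 20 reads in a library. Read numbers of low rows are thus less certain. limma-voom on these reads, other scalings, pseudocounts and filters, a replicate block and leaving out each library were alternatives. No count model was the main test, since the table holds FPKM. On simulated data of E40 to E50 with a log2 fold change of 2, 107 of 197 changed genes and 2 unchanged ones of 17442 tested passed. The simulated noise was independent between libraries, with no difference between shallow and deep ones. It therefore does not give the rate of false calls in the real comparison.

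Named were all members and, per list, up to 5 genes past the limits with the highest stage mean or, with none past, the highest mean level; others were named after their values were seen. RefSeq (Sscrofa11.1) gave the order of genes; no positions or sequences were used. Python 3.11.15, numpy 2.4.6, pandas 2.3.3 and matplotlib 3.10.9 did the rest.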

Additional observations from a re-analysis of the deposited data

How the results depend on the processing

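Under the alternatives, the number of members past the limits moved as follows. From E40 to E50 (1, NNAT) it was 0 with no filter on low values, 0 with the replicate block, and 2 in a fit of only the compared stages. Leaving out 1 library gave 0 to 2, beside 0.297% to 54.6% of all tested genes. From E50 to E60 (0) leaving out 1 library gave 0 to 5, beside 0.0205% to 59.1%. The median-ratio scaling without E60 library 1 gave 2 there, beside 37.9%. From E40 to E60 (0) leaving out 1 library gave 0 to 2, beside 0.655% to 6.11%. The median-ratio scaling without E60 library 1 gave 1 there, beside 4.87%. Each of these ranges of members reached its highest count without E60 library 1. From E40 to E50 the fold changes were the same with and without that library, which enters there only through the shared spread. The SE went from 0.59 to 0.20 for NNAT and from 0.59 to 0.32 for PLAGL1. For the comparisons with E60 the cause was not tested. Signs turned with the median-ratio scaling (9 libraries, then without E60 library 1) for IGF2R (-0.06 and -0.04) and MEST (-0.19 and -0.17) and, over 9, PEG3 (-0.01) from E40 to E50, and for MEST (0.09 and 0.03) and NNAT (0.54 and 1.62) from E50 to E60. Against E50 alone, E60 library 1 was higher for IGF2R (0.09) and MEST (0.04). Leaving out 1 library turned NNAT from E50 to E60 (-0.67 to 0.55) and, from E40 to E60, IGF2R (-0.72 to 0.38), MEST (-0.58 to 0.07), GRB10 (-0.68 to 0.01) and PLAGL1 (-0.98 to 0.06). Of all values of single members under an alternative, 364 kept direction and side of the limits, 11 passed that had not, 8 no longer passed and 16 reversed. Library numbers were not treated as pairs in the main fit. Deviations of same-numbered libraries from their stage means correlated at -0.515 to 0.109. With 3 libraries per stage and E60 split by depth, these correlations cannot show whether the samples were paired. The replicate block ended the call on NNAT from E40 to E50 (limma adjusted p = 0.0638) and changed no other call. In shallow libraries a member's value can rest on 4 reads, so depth limits IGF2R, GRB10 and PLAGL1 there.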
